A study of Sinopodophyllum hexandrum with 2 samples.

Results

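The miRNA families miR399 and miR827, both linked to the phosphate status of plants, were examined in the mature leaf of Podophyllum hexandrum (given as Sinopodophyllum hexandrum in the organism label), a herb that makes the lignan podophyllotoxin. Members were all entries of the deposited lists of conserved miRNAs whose name holds miR399 or miR827 with no further digit. This rule gave 19 of the 181 names in either list, of which 4 were miR399 and 15 were miR827. The series holds 1 small RNA library of treated leaf and 1 of control leaf, both labelled as mature. The sources used here do not give the agent, dose and duration of the treatment, the age and line of the plants, or any pooling. The control list held 155 names, 102 distinct mature sequences and 39 families, and the treated list held 107 names, 70 sequences and 30 families. The lists give a name and a mature sequence and no abundance, and the depth behind them is unknown. A member outside a list was therefore not listed for that library, the levels of the families cannot be compared, and with 1 library per group no difference was tested. A deposited table of predicted miRNA loci holds 3785 control reads and 13445 treated reads. Of its 117 entries, 0 carried a miR399 or miR827 name, but only 1 carried any miRNA name. The 0 therefore cannot tell whether loci of miR399 or miR827 are among the entries.

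As background, miR399 accumulates when phosphate is scarce, travels in the phloem from shoot to root, and in Arabidopsis lowers the transcript of PHO2, a ubiquitin-conjugating enzyme that limits phosphate transporters. The transcript IPS1 sequesters miR399 as a target mimic. miR827 is likewise induced by low phosphate. In Arabidopsis it targets NLA, a ubiquitin ligase that promotes the breakdown of phosphate transporters, and in rice it targets SPX-MFS genes, which encode vacuolar phosphate transporters. Each family is cut from a hairpin with a 5p and a 3p arm, and the strand known to act on these targets comes from the 3p arm. Entry names begin with a prefix for the species of the reference entry, such as ath for Arabidopsis thaliana, so a listed sequence may be that of the reference entry and not of a read of this plant.

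The 19 names stood for 10 distinct mature sequences, and these are shown in full because the comparison of the lists rests on them. Sequences are given 5′ to 3′ as deposited, with the seed (bases 2 to 8) in capitals. The miR827 sequence shown under csi-miR827 (sweet orange) was the commonest and also stood under the names ghr-miR827a, ghr-miR827b, ghr-miR827c, mes-miR827, ppe-miR827 and tcc-miR827. That under nta-miR827 also stood under stu-miR827-3p, and that under osa-miR827 also under ssp-miR827 and zma-miR827-3p.
csi-miR827: uUAGAUGAccaucaacaaaca
nta-miR827: uUAGAUGAacaucaacaaaca
aly-miR827-3p: uUAGAUGAccaucaacaaacg
ath-miR827: uUAGAUGAccaucaacaaacu
mdm-miR827: uUAGAUGAccaucaacgaaca
osa-miR827: uUAGAUGAccaucagcaaaca
sbi-miR399k: uGCCAAAGgggauuugcccgg
cme-miR399e: uGCCAAAGgagaguugcccuu
cme-miR399g: aGGGCUUCucuccauuggcagg
ata-miR399a-5p: gGGCGCUUcuccauuggcacgg

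miR827 was listed for both libraries, with nearly the same entries in each. The control list held 12 miR827 names and the treated list 15. All 12 control names recurred in the treated list, so that 80.0% of the 15 names were in both (exact 95% binomial interval 51.9% to 95.7%, given as a description, since related entries are not independent). Over all 181 listed names, 44.8% were in both lists and 40.9% in the control list only, where miR827 had 0. At the level of sequences, 5 of the 6 miR827 sequences (83.3%) were in both lists, against 41.0% of all 122 listed sequences. The exact 95% interval of this share, again a description, was 35.9% to 99.6% and includes the 41.0%. The remaining miR827 sequence was in the treated list only, against 16.4% of all. The 5 shared sequences were those under csi-miR827, with 7 names in each list, nta-miR827, with 2 names in each list, and aly-miR827-3p, ath-miR827 and mdm-miR827, with 1 name each.

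The miR827 entries in the treated list only were osa-miR827, ssp-miR827 and zma-miR827-3p, named for rice, a sugarcane and maize. They shared 1 sequence. All 3 are grasses, while the 12 miR827 names in both lists carried 10 prefixes, all of eudicots. Among all listed names, 26 (14.4%) were in the treated list only. Grass prefixes were carried by 8 of those 26 names (30.8%), by 17 of the 74 names in the control list only (23.0%) and by 7 of the 81 names in both lists (8.64%). The control list was not without grass names: they made up 24 of its 155 names (15.5%), against 15 of 107 (14.0%) in the treated list. The rice prefix stood on 9 names in each list, 5 of them shared, and the maize prefix on 3 control names and 2 treated names with 0 shared.

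**Figure D1:**
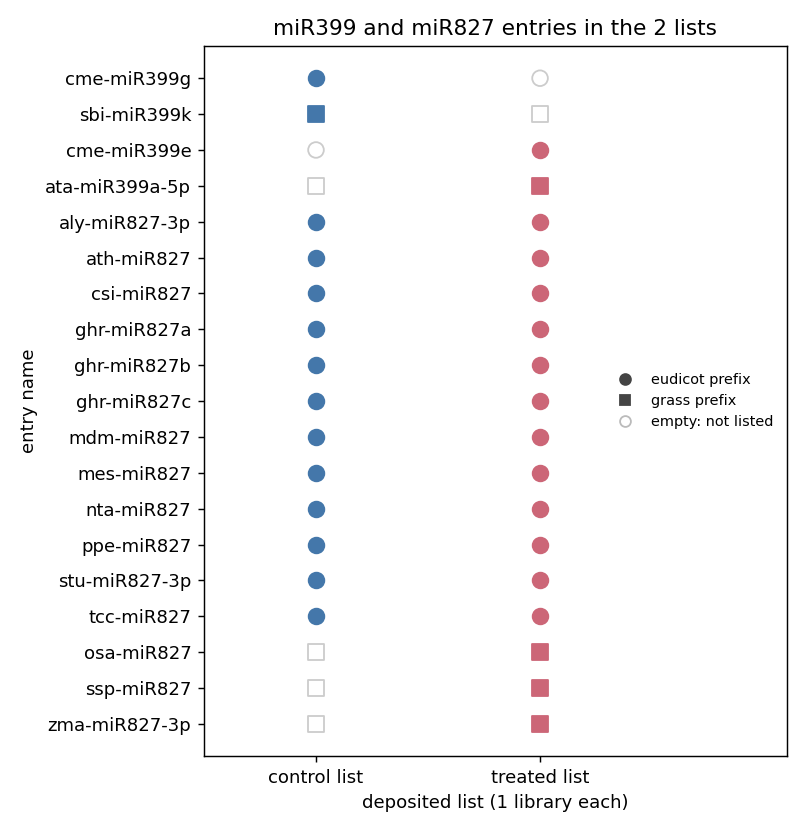
Presence of each of the 19 miR399 and miR827 entries in the control and treated lists, with 1 row per name and filled symbols for listed entries; squares mark grass prefixes and circles eudicot prefixes. The 12 eudicot miR827 names were filled in both columns, the 3 grass miR827 names in the treated column only, and no miR399 name was filled in both.

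The miR827 sequences differed from each other at few positions. Of the 15 names, 3 gave the 3p arm, 12 gave no arm and 0 gave the 5p arm. All 6 sequences were of 21 nt, began with U and had the seed UAGAUGA, which no listed entry of another family had. Counted from 1 at the 5′ end, 17 of the 21 positions were the same in all 6 sequences, and the variable positions were 9, 15, 17 and 21. Each of the other 5 sequences differed from that of csi-miR827 by 1 substitution. This was C9A in the sequence of the tobacco and potato entries (nta-miR827 and stu-miR827-3p), A17G in that of apple (mdm-miR827), A21U in ath-miR827 and A21G in aly-miR827-3p, the entry of Arabidopsis lyrata. The grass sequence differed by A15G. Position 15 was thus the only miR827 position that varied in the treated list and not in the control list, where 3 positions varied. GC content ran from 28.6% for the tobacco and potato sequence to 38.1% for the apple, grass and Arabidopsis lyrata sequences, with 33.3% for the other 2, below the median of 52.4% over all 122 listed sequences.

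**Figure D2:**
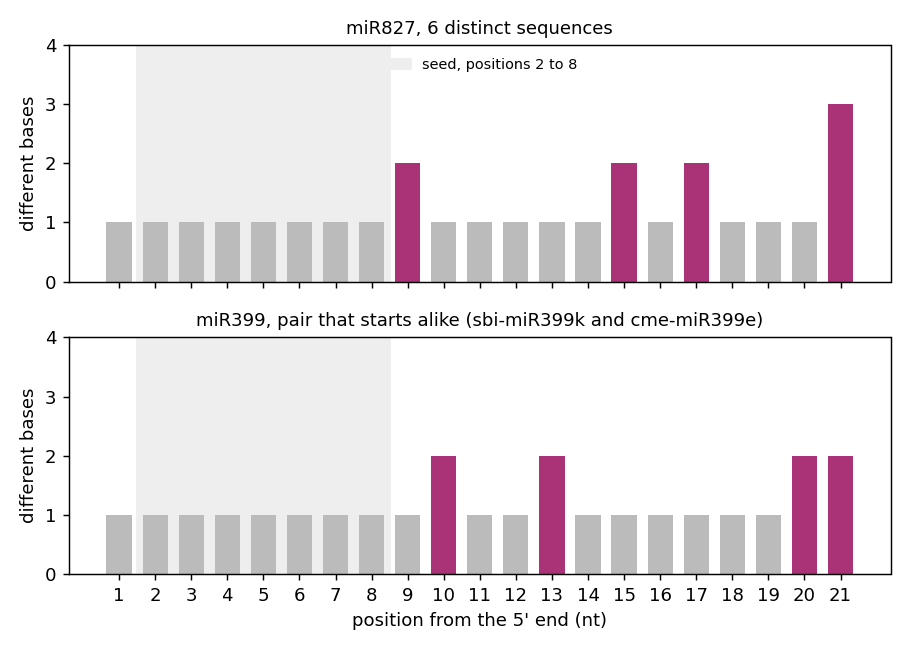
Number of different bases at each position from the 5′ end, over the 6 distinct miR827 sequences (top) and over the miR399 pair sbi-miR399k and cme-miR399e (bottom), with variable positions in purple and the seed shaded. No seed position varied in either set, and the variable positions were 9, 15, 17 and 21 for miR827 and 10, 13, 20 and 21 for the miR399 pair.

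miR399 was also listed for both libraries, but no name and no sequence was common to both lists. The control list held sbi-miR399k (sorghum) and cme-miR399g (melon). The treated list held cme-miR399e (melon) and ata-miR399a-5p, named for the wild wheat relative Aegilops tauschii. Each list thus held 1 melon entry and 1 grass entry. Of the 22 families in both lists, 3 had no name in common, namely miR159, miR397 and miR399. With 4 names in all, the share of miR399 names in both lists was 0% with an upper exact 95% limit of 60.2%, a range that includes the 44.8% of all names. The limit is a description and not a test, since related entries are not independent. Of its 4 sequences, 2 were in the control list only, against 42.6% of all listed sequences, and 2 in the treated list only, against 16.4% of all.

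Although the entries differed, each list held the same kinds of miR399 sequence. The sequences sbi-miR399k in the control list and cme-miR399e in the treated list were both of 21 nt, began with U and shared the seed GCCAAAG. They differed at 4 of 21 positions, with G10A, U13G, G20U and G21U from the sorghum to the melon sequence, and 17 positions were the same. The names of this pair give no arm. Their start, ugccaa in both, is that of the strand known to pair with PHO2 transcripts, and no listed sequence of another family began with these 6 bases.

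The other miR399 sequence in each list was assigned to the opposite arm, by its name or by likeness to the named entry. No precursor was available to check the arms. ata-miR399a-5p in the treated list is named as 5p. cme-miR399g in the control list carries no arm in its name, but lay 5 edits (substitutions, insertions or deletions) from ata-miR399a-5p, against 14 and 16 edits from sbi-miR399k and cme-miR399e. Both were of 22 nt and began with A or G, and they shared a run of 12 bases, shown here in capitals because it relates them to the other pair.
cme-miR399g: agggcuucUCUCCAUUGGCAgg
ata-miR399a-5p: gggcgcuUCUCCAUUGGCAcgg
The run lies at positions 9 to 20 of cme-miR399g and 8 to 19 of ata-miR399a-5p, and 0 of the 112 sequences of other families held it. The reverse complement of the run equalled the first 12 bases of cme-miR399e at 11 positions, with the difference U7A, and those of sbi-miR399k at 10 positions, with U7A and A10G. Here the base of the reverse complement comes first and positions are counted from its 5′ end. The first 6 bases were equal in both, so the opposite-arm sequences hold the exact complement of the start of the 3p-like ones. The run itself equalled the same 12 bases at 5 and 6 positions. The run is offset by 1 base between the pair, and their seeds differed (GGGCUUC and GGCGCUU). The 10 sequences fell into 4 seed groups, 1 for miR827 and 3 for miR399. GC content was 52.4% and 61.9% for cme-miR399e and sbi-miR399k, and 59.1% and 68.2% for cme-miR399g and ata-miR399a-5p, in each case above the highest miR827 value.

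**Figure D3:**
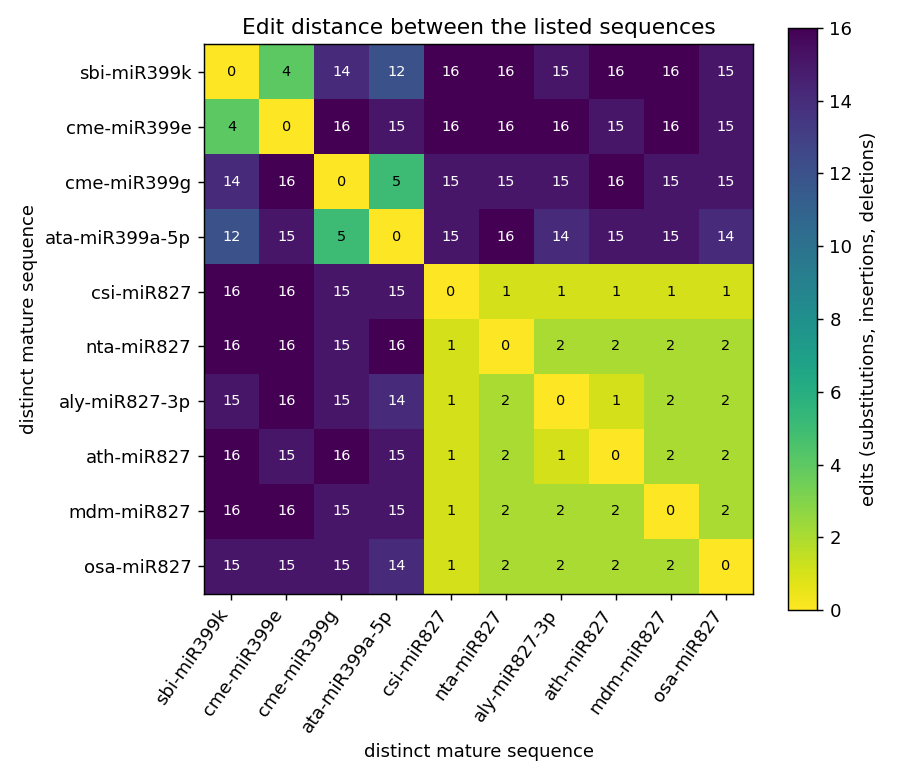
Edit distance between each pair of the 10 distinct sequences, each labelled by a name it stands under; the colour and the printed number give the edits. miR827 sequences lay 1 or 2 edits apart, the miR399 pairs 4 and 5 edits apart, and the miR399 arms 12 to 16 edits from each other.

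miR399 and miR827 lay far from each other. The miR399 arms, however, lay further from each other (12 to 16 edits) than from the nearest sequences of other families. The nearest is the smallest of the distances to 112 sequences, so the comparison is not like for like. It does not place the arms closer to other families in general. No miR399 sequence lay fewer than 14 edits from a miR827 sequence, and 0 sequences of other families lay within 5 edits of a member. The nearest sequences of other families were 8 to 10 edits from a miR827 sequence and 7 to 9 edits from a miR399 sequence. The closest case was cme-miR399e at 7 edits from an entry of miR535 and of miR3627, and for miR827 it was ath-miR827 at 8 edits from an entry of miR8137. Within families of at least 4 distinct sequences, the largest edit distance was 2 among the 6 miR827 sequences and 2 among the 4 of miR535. It was 16 among the 4 of miR399, which were assigned to both arms. In the other families of this size it was 4 for miR408, 5 for miR159, 8 for miR156, 13 for miR398, 15 for miR3627 and 20 for miR482. These distances describe reference entries, and how many entries a family has in the collection used by the authors is unknown.

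miR827 had more names in the treated list than in the control list, and miR399 had the same number in each. The treated list held fewer names in all, 107 against 155, and of the 22 families in both lists 9 had fewer names in it, 10 had equal numbers and 3 had more. Those 3 were miR827, miR157 and miR2118. miR827 made up 7.74% of the control names and 14.0% of the treated names, and miR399 1.29% and 1.87%. In the shorter treated list, the share of any family that keeps its number of names rises, as for miR535 with 17 in each list. All control names recurred in the treated list in 11 of the 22 families, among them miR827 and miR535, for which 17 of 17 names were shared. Most of the 11 had only 1 control name, whereas miR827 had 12. These are numbers of entries and not levels, and the number of entries that a single small RNA of this plant could match is not known.

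**Figure D4:**
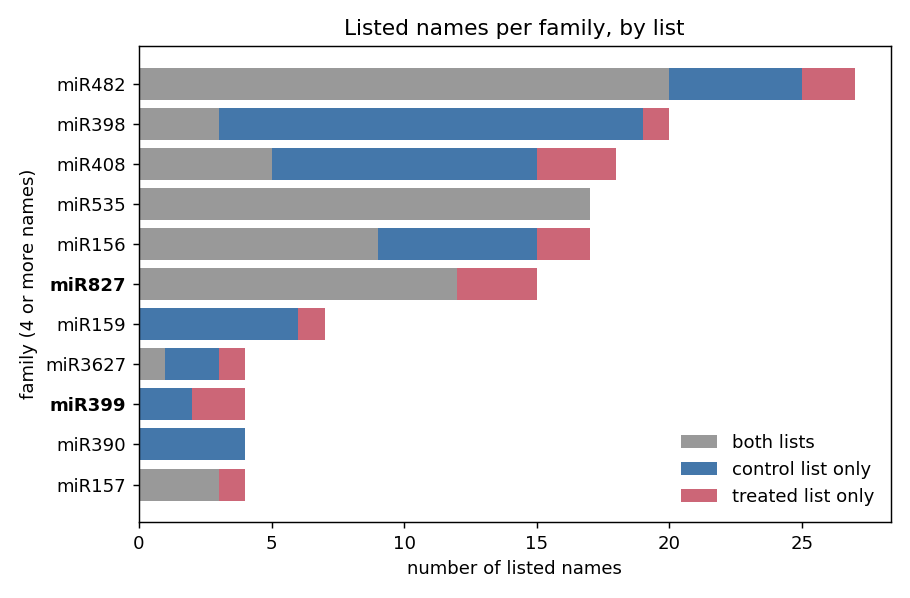
Number of listed names in families with 4 or more names, split into names in both lists (grey), in the control list only (blue) and in the treated list only (red); miR399 and miR827 are in bold. miR827 had 12 names in both and 3 in the treated list only, and miR399 had 2 in each list and 0 in both.

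Other families whose abundance is known to respond to phosphate supply, mainly from work in Arabidopsis, were looked up by name. Of 8 such families, miR399 and miR827 included, 4 were in both lists and 4 in neither. miR2111, which targets a kelch-repeat F-box gene, miR778, which targets a histone methyltransferase gene, miR169, which targets NF-YA transcription factor genes, and miR395, which targets sulfate assimilation genes, were in neither. miR398, which targets copper/zinc superoxide dismutase genes, had 19 control names and 4 treated names, of which 3 were shared. miR156, which acts on transcripts of SPL transcription factors, had 15 and 11, of which 9 were shared. These were 15.0% of the miR398 names and 52.9% of the miR156 names in either list, against 44.8% of all listed names. Whether the families in neither list were absent from the leaf cannot be told from lists of unknown depth.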

How the data were processed

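Per the labels' protocols, total RNA of leaf was made into small RNA libraries with a NEBNext kit and read from 1 end. Adapter trimming by cutadapt, with no version, is named in the submitters' processing notes. The reference collection and the way reads were matched to it, mismatches and filters included, were not given in the sources used here. Both deposited lists hold names and mature sequences without abundance, and each was assigned to the library whose code is in its name and in the sample title. The deposited count table holds raw read counts per predicted locus and was used here only for its names and totals.

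The number in a name gave its family. Names and exact sequences were compared between lists, and distances are Levenshtein edits. Sequences of a family were compared from the 5′ end without gaps. Shares carry exact binomial intervals (Clopper-Pearson, 95%), which describe entries and not reads. The name rule was tested on made-up names, and the distances on simulated sequences. All members are named, and entries of other families only where near a member or as comparisons; miR535, miR3627, miR8137, miR408, miR159, miR482, miR397, miR157 and miR2118 were chosen after their values were seen, as was the split by grass prefix. Species were assigned to prefixes from general knowledge. The members and lists were chosen with earlier results of these data known. The tools were Python 3.11.15, scipy 1.17.1, matplotlib 3.10.9 and MAFFT 7.526.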

Additional observations from a re-analysis of the deposited data

How the results depend on the processing

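Of 19 alternatives, 17 left the value within its interval, equal to it or, for a count, within 1.5 times of it. Some could not have moved it. Counting each name once leaves the variable positions as they are, and the nearest miR399 entries were already of the same arm. The intervals of the shares were also wide, such as 18.7% to 81.3% for the sequences in both lists. The count of 17 is therefore no measure of robustness. The larger of the nearest miR399 distances between the lists was 5 edits, and 4 mismatches at the best ungapped offset, where the opposite-arm pair is shifted by 1 base. The variable positions of that pair fell from 14 without gaps to 6 in a gapped alignment, for the same shift. The 6 count a gap as a difference, so they are not all differences between bases. The share of member names in both lists was 63.2%, 55.6% without species prefixes and 70.6% for the 3p-like entries alone. The share of sequences in both was 50.0%, 60.0% with up to 1, 2 or 3 edits allowed and 37.5% over the first 18 bases, where miR827 sequences that differ at position 21 merge. Groups by bases 2 to 13 numbered 6, against 4 by seed. With 10 sequences and unknown read depth, these shares are imprecise. No paired analysis was possible because each group holds 1 library.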
